A study of Mus musculus with 3 samples.

Results

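H3K4me3 regions of 1 to 4 kb with no called phospho-STAT3 site within 10 kb are described here in mouse Th17-polarised T cells, with and without STAT3. They numbered 1662, which is 22.3% of the 7444 regions of that width on chromosomes 1 to 19 and 15.6% of the 10686 marked regions of any width. Regions were stretches of 200 bp windows with at least 12 reads in both H3K4me3 libraries together, joined over gaps of up to 600 bp, and a marked region is one with at least 50 reads in both together. A phospho-STAT3 site needed at least 10 reads in 200 bp, with both strands present, and a Poisson p below 1e-08. The expected number came from the density of the whole genome or of the surrounding 10 kb, whichever was higher. On these chromosomes 26723 such sites were found. The distance was measured from the edge of a region to the centre of the highest window of a site. The members were thus chosen by pooled H3K4me3 reads and by phospho-STAT3 reads, while the ratio between genotypes did not enter the choice.

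All cells carried floxed Stat3 (Stat3fl/fl) and FoxP3-GFP. Control cells had no Cre and are labelled STAT3 wild type, and STAT3-deficient cells also had CD4-Cre, a recombinase driven in T cells. Sorted naive CD4+ CD44- CD62L+ cells were cultured for 72 h on bound anti-CD3 and anti-CD28 with IL-6 at 10 ng/ml, TGF-b at 2.5 ng/ml and antibodies blocking IL-2, IL-4 and IFN-g, and then received IL-6 for another 1 h. One library each was made for H3K4me3 in wild-type cells (12281399 reads), H3K4me3 in STAT3-deficient cells (12075963 reads) and STAT3 phosphorylated on serine in wild-type cells (10127075 reads). The sources used here give neither the age of the mice nor whether animals were pooled. Each group has 1 library, so differences between genotypes carry no test over replicates, and all intervals below cover counting error only. No gene was placed on these regions, because the gene table and promoter sequences at hand are of GRCm38.p6 and the reads of mm9. For the same reason no sequence is printed, and the labelled cell type was not checked against marker genes.

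H3K4me3 is laid down by the SET1 and MLL methyltransferase complexes and is concentrated on the nucleosomes that flank the start sites of active or poised genes. STAT3 is activated through the receptors of IL-6, IL-21 and IL-23 by Janus kinases, enters the nucleus and binds DNA at promoters and at distal elements. In T cells it is needed for the Th17 programme, including the expression of the lineage factor RORgt and of IL-17. Promoters active in every cell type carry H3K4me3 whether or not a signal-dependent factor such as STAT3 is bound nearby.

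The members were smaller peaks than regions with a called site, and they were not empty of phospho-STAT3 reads. In the wild-type H3K4me3 library a member held a median of 62 reads (lowest 6, highest 343), against 76 in the 5782 regions with a site within 10 kb. In the STAT3-deficient library the median was 77 reads (lowest 11, highest 386), against 94. Members were thus less marked in both genotypes, and per kb their medians were 42 and 51.4 reads against 49 and 61. Members were chosen by phospho-STAT3 reads, which rose with H3K4me3 reads per kb across members (Spearman rho = 0.512 and 0.480). The lower level was not tested apart from that choice. The members' median width, 1400 bp, was the same as that of regions with a site, but the third quartile was 1800 bp against 2000 bp. The members' share of all regions fell from 26.4% at 1000 bp to 13.2% at 3800 bp, without a steady order in between. A wider region covers more sequence in which a site can lie, so the rule itself favours a lower share at larger widths. Summed over members, 0.920% of wild-type (Wilson 95% interval 0.915 to 0.925) and 1.16% of STAT3-deficient H3K4me3 reads (1.15 to 1.17) lay in them.

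The limits of the rule cut through a continuum. The member closest to the distance limit, chr17:34076800-34078399, lay 10001 bp from a site, and the closest region left out, chr9:64868600-64869799, lay at 10000 bp. The first held 95 wild-type and 87 STAT3-deficient H3K4me3 reads, the second 52 and 73. At the read limit, 9 members held exactly 50 pooled reads, and 12 regions that were otherwise alike held 49. At the width limits, 369 members were 1000 bp wide and 388 regions without a site were 800 bp wide, while 5 members of 3800 bp faced 4 regions of 4000 bp. These values describe the rule and are no result.

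The phospho-STAT3 library, read by the rule and so given only as a description, was raised in nearly every member. The median was 25.6 reads per kb (quartiles 19.2 and 31.7), which is 5.35-fold the genome-wide density of 4.79 reads per kb. Regions with a site had a median of 37.5 reads per kb, 7.83-fold that density. Just 35 members lay under the genome-wide density and 1 held no read. The highest 200 bp window inside a member held a median of 11 reads and at most 29, against a median of 19 in regions with a site, and 1122 members (67.5%) had a window of 10 reads or more. At a site threshold of 1e-05 in place of 1e-08, 1169 members (70.3%) had a site within 10 kb, and in 885 of them (53.2% of members) it lay inside the region. The name of regions far from any STAT3 site therefore does not hold at the looser threshold, and members are called regions without a called site below. No input library was analysed here, so phospho-STAT3 binding below the threshold and the general recovery of open chromatin cannot be told apart.

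The same reads were set against the surroundings of each region, leaving out other called regions. Inside members the wild-type H3K4me3 library held 43.8 reads per kb and the flanks at 5 to 10 kb held 6.70, a fold of 6.54. The STAT3-deficient library held 54.4 against 6.50, a fold of 8.37, and the phospho-STAT3 library 26.0 against 6.17, a fold of 4.21. The STAT3-deficient H3K4me3 library thus stood higher over its own flanks. Around regions with a site the folds were 7.58, 9.68 and 5.04 in the same order, so enrichment at members was lower in both genotypes. Members were chosen by phospho-STAT3 reads, which rose with H3K4me3 reads, and this lower enrichment was not tested apart from that choice. In the flanks of members, phospho-STAT3 density fell from 9.86 reads per kb in the outer 0 to 1 kb to 7.28 at 1 to 2 kb, and around regions with a site from 12.7 to 8.81.

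In the average profile the members showed a trough of H3K4me3 at their centre, flanked by 2 shoulders, and the trough was as deep in both genotypes. In the central 200 bp the wild-type library held 0.880 times the density found at 200 to 400 bp from the centre, and the STAT3-deficient library held 0.879 times. In regions with a site the same quotients were 0.993 and 0.976, a nearly flat top. The depth of the trough varied with width, in no steady order. At a width of 1400 bp (262 members) the quotient of both libraries together was 0.747, and at 1000 bp (369 members) 0.791, against 1.00 and 0.973 in regions with a site of the same widths. At 1200 bp (320 members), between those widths, it was shallower, 0.905 against 1.03. In members of 2400 to 3800 bp it was 1.01. At 1600 bp the order turned, with 0.963 in members and 0.899 in regions with a site, so the difference did not hold at every width. Over all members the phospho-STAT3 library had a quotient of 0.991, but this too varied with width. It was 0.956 at 1000 bp, 0.964 at 1200 bp and 0.901 at 1400 bp. At 1600 bp, 1800 to 2200 bp and 2400 to 3800 bp it was 1.08, 1.04 and 1.05. The H3K4me3 shape comes from the reads that set the region's edges, so it is given without a test.

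**Figure D1:**
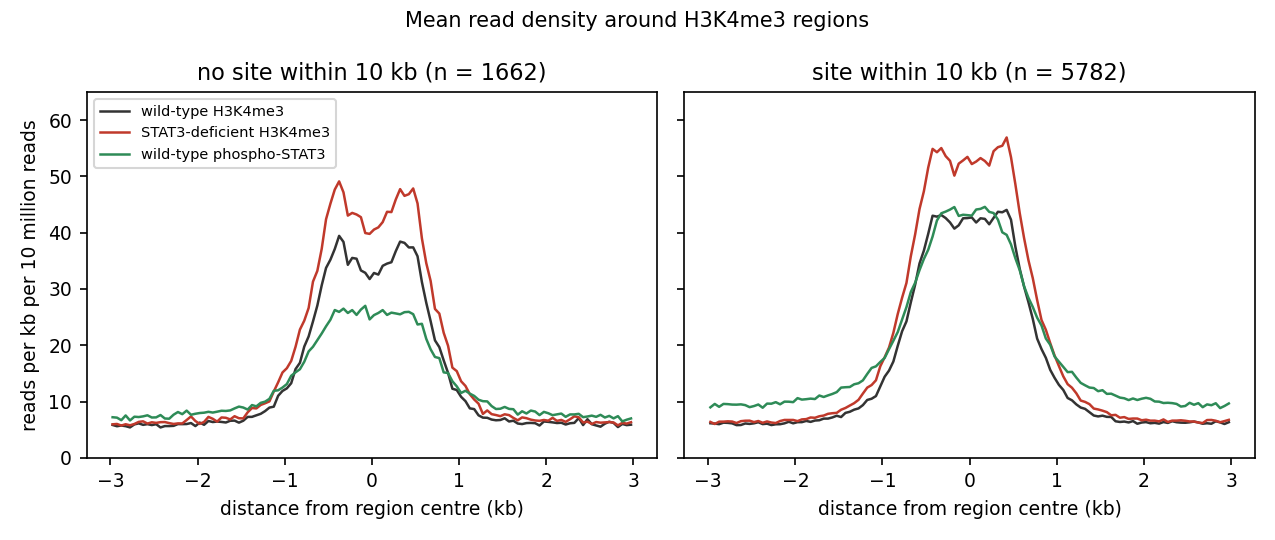
Mean read density (reads per kb, scaled to a library of 10000000 reads) in 50 bp bins against the distance from the region centre (kb), for the 1662 members on the left and the 5782 regions with a site within 10 kb on the right. Each line is 1 library. Both H3K4me3 lines dip at the centre of members, and the phospho-STAT3 line is lower there than in regions with a site.

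Aligned on the 200 bp window with most phospho-STAT3 reads inside each member, H3K4me3 was highest at that same window. Within 100 bp of it the wild-type density was 43.2 reads per kb, scaled to a library of 10000000 reads, against 29.5 at 200 to 400 bp away, a quotient of 1.47, and the STAT3-deficient quotient was 1.46. In regions with a site the quotients were 1.17 in both libraries. The window was sought only inside regions that H3K4me3 reads define, and points 200 to 400 bp away can fall past the region's edge. Phospho-STAT3 reads also set which regions have a site. The quotients can come from this placement, which was not tested, so they are given as descriptions. Across the 1662 members, phospho-STAT3 reads per kb and wild-type H3K4me3 reads per kb rose together (Pearson r = 0.487, Spearman rho = 0.512), and so did phospho-STAT3 and STAT3-deficient H3K4me3 (r = 0.460, rho = 0.480). In the 5782 regions with a site these values were lower, r = 0.272 and 0.186. The libraries share mappability and base composition, regions are not replicates, and these correlations are given as descriptions.

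Setting both H3K4me3 libraries side by side addresses whether the mark differs with the Stat3 genotype where no site was called nearby. Ratios were formed as log2 of STAT3-deficient over wild-type reads with 0.5 reads added to each, and the median of all 10686 marked regions was set to 0, which takes out any change common to all of them. Most members were alike in both libraries: 1421 of 1662 (85.5%) lay within 0.5 log2 units of 0, against 88.6% of regions with a site. The median log2 ratio of members was -0.013 (quartiles -0.22 and 0.18), against 0.024 in regions with a site and 0.017 over all 7444. A region was called higher or lower when it differed at least 2-fold and its exact (Clopper-Pearson) 95% interval lay on one side of 0.

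By this size rule 29 members were higher in the STAT3-deficient library and 8 were lower. That is 1.74% and 0.481% of members, where the shares over all 7444 regions were 0.981% (73 higher) and 0.967% (72 lower). Members hence hold 29 of the 73 higher and 8 of the 72 lower regions, while making up 22.3% of regions. Both directions together gave 37 members, 2.23%, close to the 1.95% of all regions. Intervals on one side of 0 at any fold were found in 196 members, 11.8%, against 12.3% of all regions, and these split into 108 above and 88 below 0. The split by the size rule depends on the scaling and on the library used to call regions. By library totals it was 66 higher and 3 lower. When only the wild-type library called the regions it was 6 and 69, and when only the STAT3-deficient library did, 42 and 2. In these same settings regions with a site gave 125 and 33, 11 and 148, and 63 and 11.

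**Figure D2:**
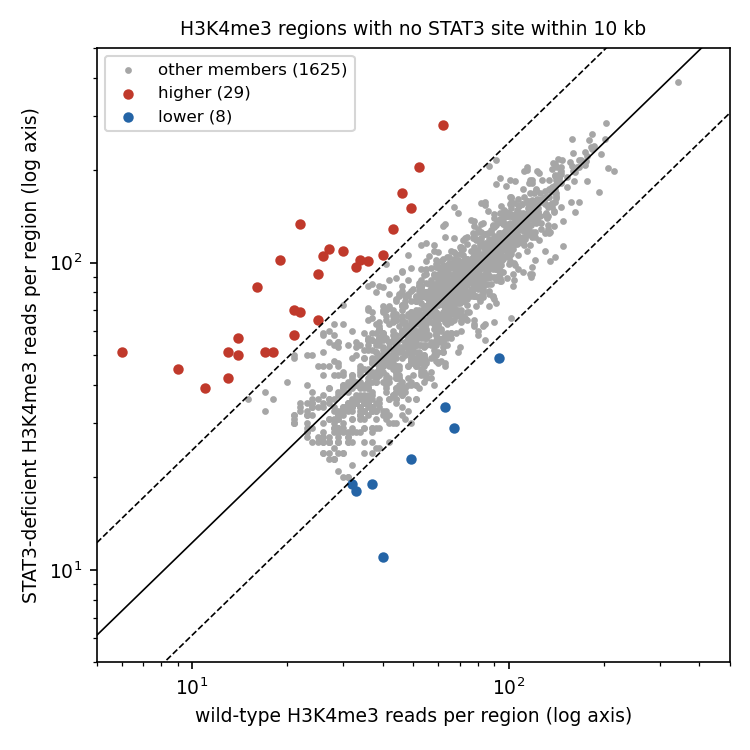
Wild-type against STAT3-deficient H3K4me3 reads per region (both axes logarithmic), 1 point per member, with the solid line at the median ratio of marked regions and dashed lines 2-fold above and below it. The 29 higher members are red and lie at 6 to 62 wild-type reads, and the 8 lower members are blue.

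Read number moved with the ratio in both sets. Members with 50 to 74 pooled reads had a median log2 ratio of -0.21, those with 75 to 99 reads -0.095, those from 150 to under 200 reads 0.014 and those with 300 to 499 reads 0.079. Regions with a site followed the same course, with medians of -0.16, -0.069, 0.013 and 0.073. Within these ranges the medians of members and of regions with a site lay close together, although members hold a larger share of small regions. Calls within ranges were few, and most lower members were in the smallest ones. At 50 to 74 reads, 9 of 238 members were higher (3.78%) and 5 lower (2.10%). Regions with a site in that range had 6 higher (2.08%) and 18 lower (6.25%) of 288. At 75 to 99 reads, 5 of 237 members were higher and 2 lower, against 4 higher and 12 lower of 506. At 100 to 149 reads, 9 of 459 members were higher and 1 lower, against 22 higher and 17 lower among 1494 regions with a site. From 150 to under 200 reads, 3 of 349 members were higher and 0 lower, against 4 higher (0.280%) and 9 lower (0.629%) of 1431. At 200 to 299 reads, 2 of 301 members were higher and 0 lower, against 5 in each direction of 1494 (0.335%). At such shares the members in each of these larger ranges are too few to tell 0 from a handful of lower regions.

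**Figure D3:**
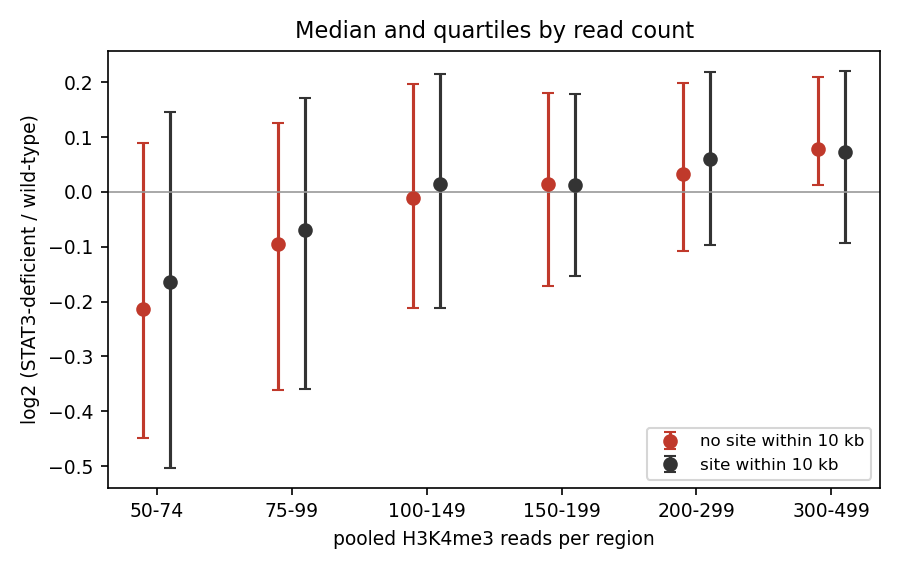
Median log2 ratio of STAT3-deficient over wild-type reads (points) with quartiles over regions (bars), by pooled H3K4me3 reads per region, for members (red) and regions with a site within 10 kb (dark). Both sets rise from below 0 at 50 to 74 reads to above 0 at 300 to 499 reads.

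The distance from members to the nearest site had a median of 26.6 kb (quartiles 16.1 and 46.3) and reached 3166 kb. Higher members were concentrated in the nearest class: at 10 to 20 kb 19 of 607 members were higher (3.13%) and 5 lower (0.824%). At 20 to 50 kb 8 of 690 were higher and 0 lower, at 50 to 100 kb 2 of 221 in each direction, and beyond 100 kb 0 of 144 were higher and 1 lower. On the other side of the limit, 28 of the 1719 regions with a site at up to 10 kb but not inside were higher (1.63%) and 40 lower (2.33%). Of the 4063 regions with a summit inside, 16 were higher (0.394%) and 24 lower (0.591%). With members defined by a distance of 25 kb, 8 of 876 were higher, and this 0.913% was under the 0.981% of all regions. Among members with 100 or more reads the nearest class held 10 higher and 1 lower of 458, and the class at 20 to 50 kb held 4 higher and 0 lower of 506.

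Members more than 100 kb from any site were lower in level and, under the settings used here, in ratio. Their median log2 ratio was -0.16 (quartiles -0.42 and 0.053), whereas the 3 nearer classes of members had medians between -0.0032 and 0.0011. They were also small, with a median of 101.5 pooled reads and 17.7 phospho-STAT3 reads per kb, and per kb they held 36.7 wild-type and 38.3 STAT3-deficient H3K4me3 reads. The 74 of them with 100 or more reads had a median of -0.096, so the difference was smaller without the smallest regions, and rescaled on regions of 100 or more reads it was -0.13. With flanking background subtracted the median of the class was -0.19, and by library totals it was 0.16, below the 0.31 of all members. The size of the difference depended on how regions and sites were called. It nearly vanished with a joining gap of 200 bp (-0.039, 75 members) and at a site threshold of 1e-12 (-0.010, 570 members). It was larger at 1e-05 (-0.35, 59 members) and when only the wild-type library called regions (-0.32, 213 members).

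**Figure D4:**
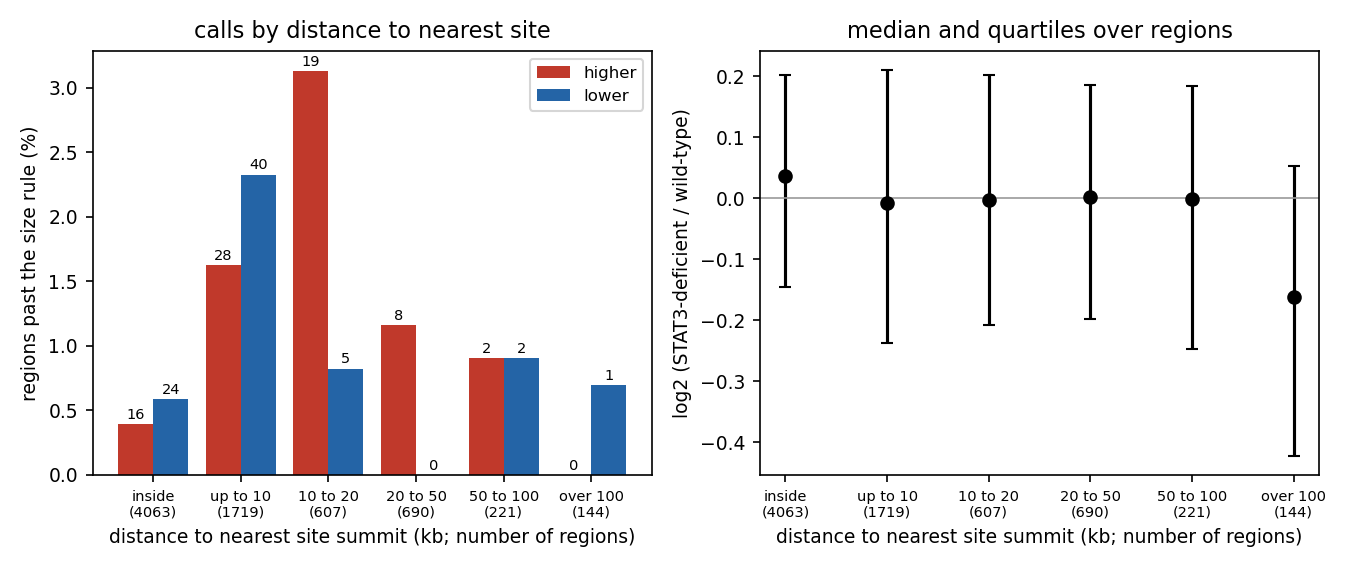
Left, the share of regions of 1 to 4 kb called higher (red) or lower (blue) in the STAT3-deficient library, by distance to the nearest phospho-STAT3 summit, with the number called above each bar. Right, the median log2 ratio (points) with quartiles over regions (bars). The class at 10 to 20 kb has the highest share of higher regions (19 of 607), and the class over 100 kb has the lowest median.

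The 29 higher members were between 2.10-fold and 6.46-fold higher. Most were weak in wild-type cells: their wild-type reads ran from 6 to 62 with a median of 22, where the median of all members was 62. Their STAT3-deficient reads ran from 39 to 281 with a median of 92. Per kb, the wild-type median was 16.9 and the STAT3-deficient median 51.5, close to the median of all members there (51.4). The size rule chose them by these reads, and pooled reads set the regions, so these levels describe the choice and are no separate result. Their phospho-STAT3 median was 17 reads per kb, below the 25.6 of all members. Over all members phospho-STAT3 rose with wild-type H3K4me3 (Spearman rho = 0.512), and the lower median was not tested apart from that. They lay on 13 chromosomes, with 5 of them on chromosome 2.

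The higher member whose interval lay farthest from 0 was chr1:163716400-163718999. It held 22 reads in the wild-type H3K4me3, 134 in the STAT3-deficient H3K4me3 and 18 in the phospho-STAT3 library. The ratio was 4.88-fold (log2 2.29, interval 1.66 to 3.03). The STAT3-deficient reads formed a broad peak with up to 16 reads per 200 bp, where no wild-type window in the region held more than 5. The nearest site lay 18.9 kb away with 16 reads, and the only other marked region within 100 kb had a log2 ratio of -0.045.

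The largest fold was at chr9:115519800-115520799, which held 6 wild-type and 51 STAT3-deficient reads, 6.46-fold (log2 2.69, interval 1.57 to 4.31). With 6 wild-type reads this is the least precise of the named higher members. It had 19 phospho-STAT3 reads and a site of 24 reads 12.4 kb away, and no other marked region within 100 kb.

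The member with most reads among the higher ones was chr4:63519600-63522599, with 62 wild-type, 281 STAT3-deficient and 64 phospho-STAT3 reads, 3.67-fold (log2 1.88, interval 1.48 to 2.31). The only other marked region within 100 kb, chr4:63589600-63592999, lay 67.0 kb away and was a higher member too, with 30, 109 and 28 reads (2.93-fold). Another pair was seen at chr5:113565600-113568399, which held 52 wild-type, 204 STAT3-deficient and 55 phospho-STAT3 reads (3.18-fold, log2 1.67, interval 1.23 to 2.15). A narrow marked region 1.00 kb beside it held 16 and 43 reads, a log2 ratio of 1.10.

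Of the other named higher members, chr17:12883600-12884799 held 19 wild-type and 102 STAT3-deficient reads (4.29-fold) and had 11 phospho-STAT3 reads. At chr13:33057000-33058199 the reads were 16 and 83 (4.13-fold), and at chr2:120138400-120139399 they were 9 and 45 (3.91-fold). These 3 were narrow, at most 1200 bp, and their wild-type densities of 9 to 15.8 reads per kb were well under the 42 of the median member. The wider chr2:27584400-27586599 held 46 and 168 reads (2.96-fold) with 38 phospho-STAT3 reads. At chr3:14886400-14887999 the reads were 27 and 111 (3.31-fold) and at chr7:133767000-133769199 they were 26 and 105 (3.25-fold). Sites lay between 16.4 and 66.6 kb from these 6 members.

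Most neighbours of the higher members were not called. Of the 29, 24 had another marked region within 100 kb, and these neighbours, counted once per member, numbered 58. Of the 58, which were marked regions of any width, 6 were higher as well and 0 were lower. The higher share over all 7444 regions of 1 to 4 kb was 0.981%, but these sets differ in width. Pairs of higher members, such as that on chromosome 4, enter the count of 6 from both sides. Whether called regions lie together was not tested. The median of the neighbourhood medians was -0.0036 log2 units. The reads of the called members came from both strands, with a share on the plus strand between 33.3% and 68.8% in the wild-type and between 32.4% and 78.9% in the STAT3-deficient library.

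The 8 lower members were small, and 6 of them were 1000 bp wide. They held between 32 and 93 wild-type reads (median 44.5) and between 11 and 49 STAT3-deficient reads (median 21), and they were between 2.04-fold and 4.32-fold lower. The farthest from 0 was chr15:100965000-100965999, where the reads were 40 in the wild-type, 11 in the STAT3-deficient and 20 in the phospho-STAT3 library (log2 -2.11, interval -3.27 to -1.17). It lay just past the distance limit, 10.1 kb from a site of 50 reads. No window centred in the region held more than 4 STAT3-deficient reads, where wild-type windows held up to 11.

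Next came chr6:42274000-42275199 with 67 wild-type, 29 STAT3-deficient and 27 phospho-STAT3 reads, a log2 ratio of -1.49 (-2.18 to -0.85). The widest lower member, chr4:11631000-11632799, held 93, 49 and 48 reads (log2 -1.21, interval -1.75 to -0.70). The nearest sites, 13.9 and 12.9 kb away, held 13 and 15 reads. At chr6:42274000-42275199 the wild-type reads formed 2 peaks of 19 reads per 200 bp, and the STAT3-deficient library kept the right one, with 14 reads, and had 1 read in the window of the left one.

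The remaining lower members were chr19:58529400-58530399 with 49 wild-type and 23 STAT3-deficient reads, chr1:50984000-50984999 with 63 and 34, and chr1:62749400-62750399 with 37 and 19. Their log2 ratios were -1.37, -1.17 and -1.24. Finally chr15:88939400-88940399 held 33 and 18 reads and chr5:35619000-35619999 held 32 and 19, with log2 ratios of -1.15 and -1.03. By library totals 5 of the 8, all except those on chromosomes 6 and 19 and chr15:100965000-100965999, no longer passed the 2-fold limit. Just 3 of the 8 had a marked region within 100 kb, 11 in all, and 0 of these were called in either direction.

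**Figure D5:**
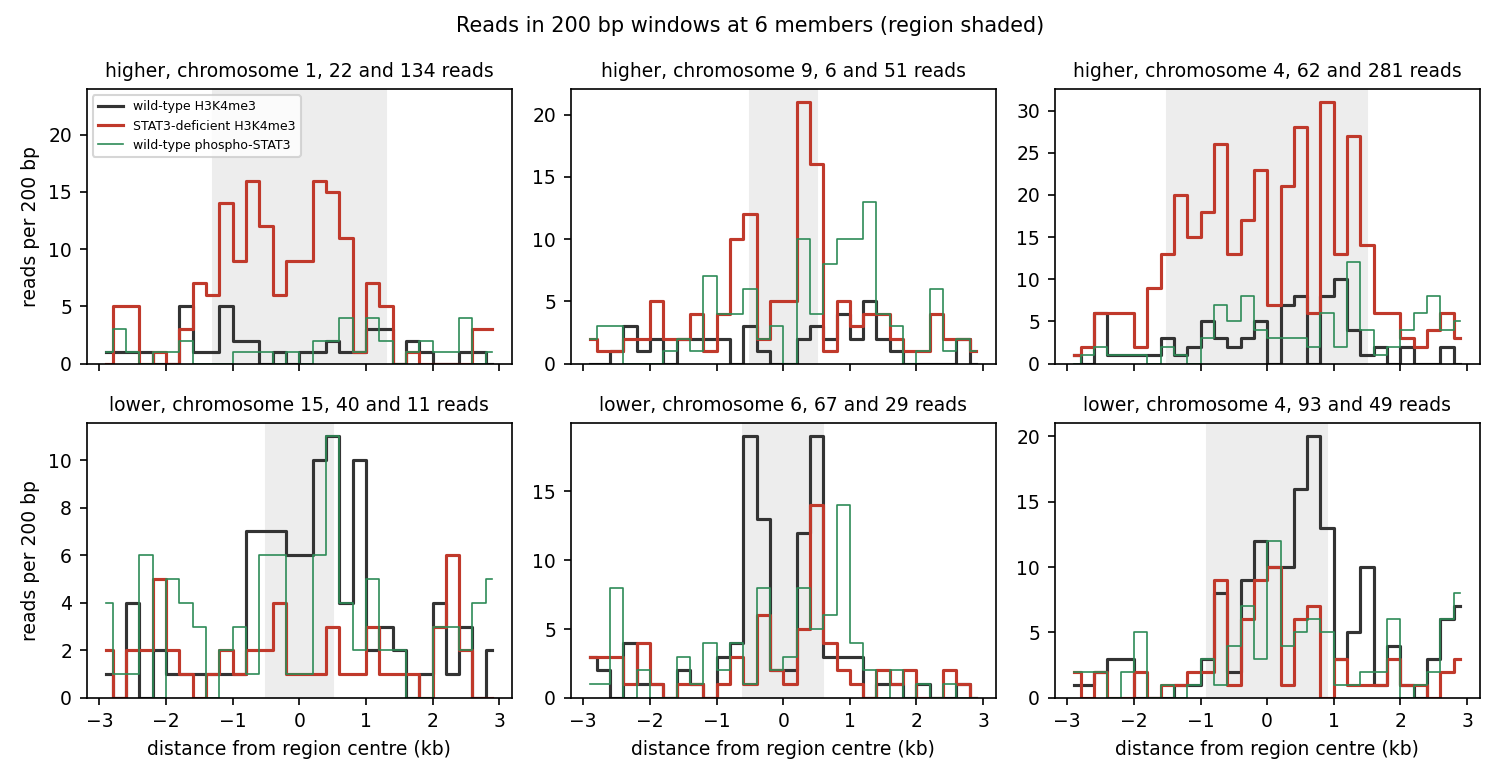
Reads per 200 bp window against the distance from the region centre (kb) in the wild-type H3K4me3 (dark), STAT3-deficient H3K4me3 (red) and phospho-STAT3 (green) libraries, for the 3 higher members on top and the 3 lower members below whose intervals lay farthest from 0. The shaded band is the called region, and the vertical scales differ between panels.

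The members with most reads differed little between genotypes when the median of marked regions was set to 0. The largest, chr7:107641200-107644999, held 343 wild-type, 386 STAT3-deficient and 258 phospho-STAT3 reads, a log2 ratio of -0.12 (-0.34 to 0.090). Its highest phospho-STAT3 window of 29 reads was the highest inside any member, and the nearest called site lay 40.7 kb away. The next, chr15:67006400-67010199, held 203, 284 and 121 reads (log2 0.19, interval -0.075 to 0.46). The other 3 were chr16:4878000-4881199, chr15:59146000-59148999 and chr11:22757800-22761199, with log2 ratios of 0.024, 0.23 and 0.19. All 5 intervals included 0 under this scaling, and their bounds lay between -0.34 and 0.51, short of a 2-fold difference. By library totals the same 5 had log2 ratios between 0.19 and 0.55, each above the upper bound of its interval under the main scaling.

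The members farthest from any site were isolated from other regions too. The farthest, chr14:83896000-83896999, lay 3166 kb from a site and 3643 kb from the next marked region, and held 32 wild-type, 31 STAT3-deficient and 21 phospho-STAT3 reads. At chr3:3324200-3326599, 2249 kb from a site, the reads were 91, 74 and 16, with a log2 ratio of -0.59 (-1.05 to -0.13). The 3 others, chr1:26742800-26745199, chr3:159502600-159503999 and chr3:159158000-159158999, lay 1970, 1803 and 1458 kb from a site, with log2 ratios of -0.31, -0.17 and 0.17. The interval at chr3:3324200-3326599 holds for the main scaling only. By library totals the log2 ratios of the 5, in the order named, were -0.021, -0.27, 0.0070, 0.15 and 0.49. None of these 5 had a marked region within 100 kb. Members in general were somewhat more isolated than regions with a site: the gap to the next marked region had a median of 38.6 kb against 26.8 kb, and 12.8% against 25.9% had one within 10 kb. In the surrounding 1 Mb they had a median of 21 sites against 24, and 17 members had 0. The rule leaves out regions with a site within 10 kb, and 4063 of all 7444 regions held a summit inside. A marked neighbour within 10 kb can thus bring a site that excludes the region, and a region with a site cannot have 0. These differences follow in part from the choice and are given as descriptions.

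Members were found on every autosome, at between 18.2% of the regions on chromosome 9 and 28.2% on chromosome 16. Per Mb they were most frequent on chromosomes 19 (1.26) and 11 (1.04) and least on chromosome 1 (0.451). The median log2 ratio by chromosome ran from -0.11 on chromosome 8 to 0.083 on chromosome 17. Lined up along the chromosomes, the 2652 marked regions of any width without a site within 10 kb formed 1735 runs, of which 1179 were a single region and 205 held 3 or more. The longest run, 14 regions over 1.37 Mb of chromosome 5 from 112771400 to 114141599, held 4 members, among them the higher one at chr5:113565600-113568399, and had a median log2 ratio of -0.13. A compact run on chromosome 19 from 7043600 to 7070999 held 6 members within 0.0274 Mb, with a median of 0.033.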

How the data were processed

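ChIP-seq (chromatin immunoprecipitation and sequencing) reads were analysed from 3 libraries, made with 18 PCR cycles and selected at about 250 bp, per the labels' protocols. The deposited files give the position and strand of each aligned read of 25 bp, and 0 positions were repeated on a strand within a file. The build was mm9 and SICER was used, per the submitters' processing notes. The aligner is not given in the sources used here. Reads were moved 75 bp towards the fragment centre. Sites used a mappable share of 0.8. Flanks left out all called regions.

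Named members were up to 10 in each direction with the interval bound farthest from 0 (10 higher and all 8 lower), the 5 with most reads, the 5 farthest from a site and those at the limits of the rule. The members and lists were chosen with earlier results of these data known. A position thus counts at most once per strand, which caps counts in dense windows, and intervals cover counting error only. The size rule and the callers were tested on simulated data. Alternatives varied scaling, read minimum, shift, depth, background, calling library, gap, site threshold and distance. Tools were numpy 2.4.6 for counting, scipy 1.17.1 for intervals and Poisson p, statsmodels 0.14.6 for Wilson intervals, pandas 2.3.3 for tables and matplotlib 3.10.9 for figures, under Python 3.11.15.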

Additional observations from a re-analysis of the deposited data

How the results depend on the processing

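No paired analysis was possible because each group had 1 library. The number of members (1662) was 493 at a site threshold of 1e-05, 3496 at 1e-12 and 876 with a distance of 25 kb. The count of higher members (29) was 66 by library totals, 15 with 100 or more reads, 48 with background subtracted, 6 when only the wild-type library called regions, 14 at a site threshold of 1e-05 and 8 with 25 kb. As shares of the members in each setting, which differ in number, these were 3.97%, 1.26%, 2.89%, 0.301%, 2.84% and 0.913%, against 1.74%. Regions with a site in the same settings gave 2.16%, 0.601%, 1.56%, 0.186%, 0.849% and 0.990%, against 0.761%. The share of all regions moved with the setting too, and stayed at 0.981% for the site threshold and the distance. The excess of higher members over that share was thus absent with 25 kb. The count of lower members (8) was 3 by library totals, 1 with 100 or more reads, 19 without a read minimum, 22 with background subtracted, 69 when only the wild-type library called regions and 2 when only the STAT3-deficient library did. It was 5 with a gap of 200 bp, 4 at 1e-05, 14 at 1e-12, 15 with 5 kb and 3 with 25 kb. Lower shares by library totals, 100 or more reads, no minimum and subtracted background were 0.181%, 0.0842%, 1.01% and 1.32% of members. Regions with a site gave 0.571%, 0.722%, 1.19% and 2.01%. Calling by the wild-type library gave 3.46% against 2.50%, and by the STAT3-deficient library 0.0970% against 0.171%. The settings from the gap onward gave 0.440%, 0.811%, 0.400%, 0.687% and 0.342%, against 0.815%, 0.978%, 1.47%, 1.08% and 1.05%. Higher members outnumbered lower ones under all 15 alternatives except calling by the wild-type library only. This tally does not show a direction free of the settings. Library totals shift every ratio up, and calling by 1 library favours regions high in that library.

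The median log2 ratio of members (-0.013) was 0.31 by library totals, 0.037 when scaled by regions without a site, 0.012 without a read minimum, -0.089 when only the wild-type library called regions, 0.0092 with a gap of 200 bp, -0.098 at 1e-05 and 0.017 at 1e-12. The share within 0.5 log2 units (85.5%) was 73.6% by library totals, 90.3% with 100 or more reads, 83.7% without a minimum, 79.7% with background subtracted, 78.2% when only the wild-type library called regions, 87.3% with a gap of 200 bp, 78.7% at 1e-05 and 87.7% at 1e-12. The causes of these moves were not tested. Scaling by totals shifts every log2 ratio up by 0.32. No named higher or lower member changed direction under library totals, no read shift, thinned wild-type reads or subtracted background. The alternatives for members over 100 kb from a site were chosen after the data were seen.

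At 50 to 74 reads the median width of an interval was 1.54 log2 units in members, against 0.643 at 300 to 499 reads, so small differences were not detectable in the smallest regions.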

Other observations

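The X chromosome is outside the rule. It held 172 marked H3K4me3 regions of 1 to 4 kb, and 92 of them (53.5%) had no phospho-STAT3 site within 10 kb, against 22.3% on the autosomes. Sites themselves were sparse there, 337 in all or 2.02 per Mb, against 10.8 per Mb on the autosomes. Site calling used the same read minimum and genome-wide density on X, without adjusting for read depth there. A lower depth makes sites harder to call, and how far depth accounts for these shares was not tested. The 92 regions held 5084 wild-type and 6073 STAT3-deficient H3K4me3 reads, with a median log2 ratio of -0.045, and 0 were higher and 1 lower by the size rule. Chromosome X took 3.25% of wild-type and 3.18% of STAT3-deficient H3K4me3 reads and 2.87% of phospho-STAT3 reads.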
